A study of Homo sapiens with 4 samples.

Results

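The 10 genes described here are 4 TCF and LEF factors (TCF7, TCF7L1, TCF7L2 and LEF1), beta-catenin (CTNNB1), 3 scaffolds of its destruction complex (AXIN1, AXIN2 and APC) and the feedback inhibitors NKD1 and RNF43. They were picked by name, 10 of 24934 rows in the table, and all 10 were found, each on a single row. The list was proposed because TCF7L2 had been seen at a lower level with the siRNA called si1, so the TCF7L2 values in si1 and control chose the gene and are given as a description.

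The question was how expression changes when ZSCAN5A or ZSCAN5B, paralogous zinc finger genes, are knocked down. HEK-293 cells, an established line derived from human embryonic kidney, were transfected for 48 h with 10 nM of siRNA. The ZSCAN5A siRNAs were si4 and si5, the ZSCAN5B siRNA was si1, and a scrambled siRNA served as the negative control. Polyadenylated RNA was sequenced from 1 library per siRNA, 4 libraries in all. All cells received an siRNA and transfection reagent, and an untransfected sample was not analysed here. No siRNA had a replicate library, so values and ratios are given without a test, and the 3 ratios to control all used the same control library. A fit that takes si4 and si5 as replicates of each other is given in the closing section as an alternative.

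In canonical Wnt signalling, AXIN and APC hold beta-catenin for phosphorylation and degradation, and a Wnt ligand bound to Frizzled and LRP receptors stops this destruction. Beta-catenin then enters the nucleus and binds TCF and LEF factors on target genes, among them the feedback genes AXIN2, NKD1 and RNF43 that restrain the pathway. The pathway drives nephron formation in the developing kidney, and HEK-293 cells are widely used in reporter assays of it.

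Levels were given as FPKM, a fragment count divided by transcript length and by the mapped total of its library. From the steps between low values, 1 fragment could be sized in each library. This put the depth at about 59700000 fragments for si4, 84500000 for si5, 55600000 for si1, and 54700000 in the control library. The depth put for si5 lies above the range of reads per sample stated in the study's methods, and the others lie below it. The reason was not tested, so the depths and the intervals built on them are approximate. The FPKM values summed to between 537181 and 546239 in the siRNA libraries and to 488036 in control. ZSCAN5A stood at 0.730 FPKM with si4, 0.713 with si5 and 2.53 with si1, against 2.42 in control, so that si4 and si5 left 30.2% and 29.5% of the control level. ZSCAN5B stood at 0.0331, 0.0663, 0.0948 and 0.0903 FPKM in the same order. The library labelled as a ZSCAN5B knockdown thus held 105% of the control level of its target, at values near 0, and it is called the si1 library below. For this siRNA the study reported lower ZSCAN5B transcript by qRT-PCR and lower protein by Western blot. FPKM values near 0 cannot settle how far the transcript fell. The study's qRT-PCR also put the paralog ZSCAN5D below control with si4, si5 and si1, least so with si1. With si4 it put ZSCAN5B above control, where the FPKM value lay below it, near 0. Of 7 markers of HEK-293 cells, 6 were at 1 FPKM or more in every library. The remaining marker, PAX2, measured 0.584 FPKM with si4, 0.615 with si5 and 0.608 with si1, against 1.16 in control. Of 6 markers of mature kidney, 2 (UMOD and AQP2) were listed at 0 in all 4 libraries. The summed level of the 6 was at most 0.0609 FPKM. Summed blood markers reached at most 0.0132 FPKM and liver markers 0.182 FPKM. Fibroblast markers summed to 1.41 FPKM with si4, 1.74 with si5 and 1.96 with si1, against 2.20 in control, and their part in the ratios was not tested.

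A gene was called when its ratio to control passed 1.5-fold and any library compared held 1 FPKM or more of it. With the mean of si4 and si5, 3.1% of 12935 genes were lower by this rule and 0.673% were higher. With si1, 3.16% of 12866 genes were lower and 0.832% were higher. Scaling every library to the same FPKM sum moved the median log2 ratio of all genes by -0.15 for si4 and si5 and by -0.14 for si1, and it turned 401 lower and 87 higher genes into 952 and 47 for si4 and si5, and 407 and 107 into 885 and 66 for si1. Intervals below are 95% Clopper-Pearson intervals from the approximate fragment numbers and cover counting error only.

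The TCF and LEF genes stood below the control in every siRNA library. TCF7L2 was the only one of the 4 past the limit with the mean of si4 and si5 and with si1. The 10 genes as a whole had a median log2 ratio of -0.27 for the mean of si4 and si5 and of -0.17 for si1, beside -0.02 and -0.01 over all genes tested. APC stood apart from the other 9 in being lowest in control. CTNNB1 and RNF43 lay close to the control level throughout. In bulk RNA, fewer cells of a type and less RNA per cell cannot be told apart.

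**Figure D1:**
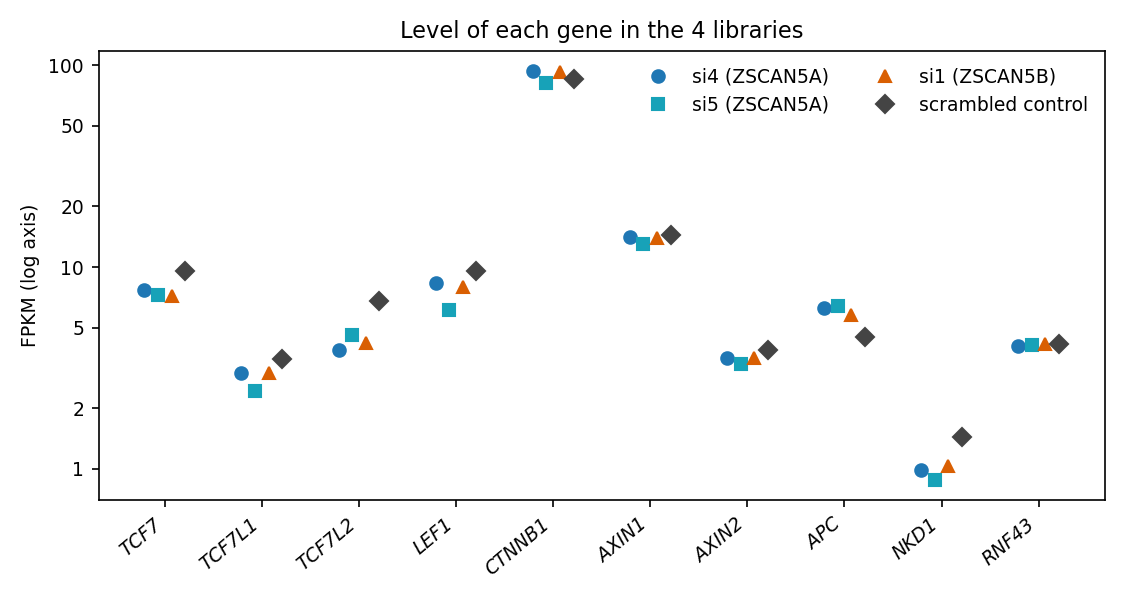
FPKM of each gene (log axis) in the si4, si5, si1 and scrambled control libraries, 1 point per library. The control point lies highest for 7 of the 10 genes and lowest for APC, and CTNNB1 lies far above the others, at 81.4 to 93.4 FPKM.

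TCF7L2 encodes TCF-4, a transcription factor that binds beta-catenin and that, without it, recruits corepressors of the TLE family. The gene lies on chromosome 10 at 114710009 to 114927436 (hg19, plus strand), and its reference transcript has 15 exons. Its level was 3.87 FPKM with si4, 4.61 with si5 and 4.21 with si1, against 6.78 in control. The 3 siRNA libraries thus spanned 1.19-fold and lay below the control. The si1 level was 0.621 of the control (interval 0.572 to 0.674), a log2 ratio of -0.69, and 1.69% of all genes tested had a lower ratio. With si4 the level was 0.571 of control (interval 0.525 to 0.619) and with si5 it was 0.681 (interval 0.634 to 0.731). The si5 ratio, 1.47-fold lower, did not reach the limit. The interval for si1 overlapped the interval of each ZSCAN5A siRNA.

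Comparisons without the control are given next as a description, since the first of them still holds the si1 value that chose TCF7L2. Between si1 and the mean of si4 and si5 the TCF7L2 ratio was 0.993 (interval 0.921 to 1.07), a difference not detectable at this depth. Between si4 and si5 the ratio was 0.838 (interval 0.772 to 0.909), outside counting error. Across all genes tested, 1.27% passed 1.5-fold either way between si1 and the mean of si4 and si5, and 2.53% did so between si4 and si5. None of the 10 genes passed that limit in either comparison.

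An siRNA can also pair through bases 2 to 8 of its guide, the seed, with the 3′ UTR of other transcripts, so the designed target sequences are shown with the letters that such a site would carry in capitals. Each whole sequence was found in the reference transcript of its labelled gene.
si4: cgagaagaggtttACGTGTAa
si5: aagctagtcatccACAAGAGa
si1: acgtgtgcaataaATCATTTa
The si1 letters ATCATTT occurred once in the 3′ UTR of TCF7L2, 424 bases into its 1705. The match lies at chr10:114926155-114926161 (GRCh37, plus strand) and is shown in capitals with 10 bases on either side, since TCF7L2 with si1 is the value that chose the gene.
TCF7L2 3′ UTR: ttgcgaaccaATCATTTtacatctggt
The same letters stood in 20.5% of 19032 annotated 3′ UTRs and in 21.8% of those within 20% of the length of the TCF7L2 one. The letters of si4 and si5 were not found there, and stood in 2.97% and 11.3% of all annotated 3′ UTRs. APC held 1 match to the si1 letters as well, shown as the other gene of the set that matches si1 alone.
APC 3′ UTR: gctgttatcaATCATTTctagattata
This match lies at chr5:112180171-112180177 (GRCh37, plus strand). RNF43 held 1 match to si1 and 1 to si5. The other 7 genes held no match to any of the 3 seeds. A match in letters is a description and not a measured site, and its part in the levels was not tested.

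The promoter of TCF7L2 in RefSeq (GRCh38.p14, a different build from the deposited table) is shown because its gene leads the set, as the 250 bases before the first listed start at chr10:112949997-112950246 (plus strand), with CpG steps in capitals.
TCF7L2 promoter: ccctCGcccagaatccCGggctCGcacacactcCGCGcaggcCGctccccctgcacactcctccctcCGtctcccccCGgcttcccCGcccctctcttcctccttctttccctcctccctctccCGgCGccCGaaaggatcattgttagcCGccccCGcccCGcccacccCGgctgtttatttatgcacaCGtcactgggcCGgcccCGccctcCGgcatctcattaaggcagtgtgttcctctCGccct
The stretch holds 21 CpG steps, and the window of 300 bases that includes the first 50 transcribed bases is 65.7% G and C, where the median of 35116 promoters is 58.7%. The windows at the other listed starts of TCF7L2 lie below that median, at 42.7% and 48.7%. The letters CTTTGAT, which TCF and LEF factors bind, were searched on both strands. They were absent from all 13 promoters listed for 8 of the 10 genes and present in 2.62% of all promoters, while AXIN2 and NKD1 had no entry. Among 109 promoters of other Wnt pathway genes, SP5, a target gene of the pathway, alone held them, 109 bases before its start.
SP5 promoter: agccgctattCTTTGATgattgggtag
This stretch lies at chr2:170715218-170715244 (GRCh38.p14, plus strand).

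TCF7 encodes TCF-1, a member of the same family best known in T cells. The gene lies on chromosome 5 at 133450402 to 133483920 (hg19, plus strand). It measured 7.69 FPKM with si4, 7.24 with si5 and 7.15 with si1, against 9.61 in control. All 3 siRNA libraries lay within 1.08-fold of each other and below the control. The ratio was 0.777 for the mean of si4 and si5 (interval 0.733 to 0.824) and 0.744 for si1 (interval 0.692 to 0.800), neither past the limit. TCF7L1 encodes TCF-3, which acts mainly as a repressor. It lies on chromosome 2 at 85360583 to 85537511 (hg19, plus strand), and its levels were 2.99 FPKM with si4, 2.43 with si5 and 3.00 with si1, against 3.48 in control. The si4 and si1 libraries matched each other closely, and si5 was the lowest. With si5 the ratio was 0.697 (interval 0.620 to 0.783), while for si4 and si1 it was 0.860 and 0.861. The ratio of si4 to si5 was 1.23 (interval 1.10 to 1.39).

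LEF1 encodes lymphoid enhancer factor 1, an activating partner of beta-catenin that is itself a Wnt target. It lies on chromosome 4 at 108968701 to 109090112 (hg19, minus strand). It measured 8.30 FPKM with si4, 6.14 with si5 and 7.97 with si1, against 9.53 in control. The control was again highest, and si5 stood apart below the other siRNA libraries. LEF1 passed the limit with si5 alone, at a ratio of 0.644 (interval 0.604 to 0.688), whereas si4 gave 0.871 and si1 0.836. The ratio of si4 to si5 was 1.35 (interval 1.27 to 1.44), the widest split between those siRNAs among the 10 genes, and 2.38% of all genes tested had a higher one. TCF7L2 split the other way, with si4 below si5.

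Together the 4 TCF and LEF genes summed to 22.9 FPKM with si4, 20.4 with si5 and 22.3 with si1, against 29.4 in control. The sums with the siRNAs were 0.777, 0.695 and 0.760 of control in that order. Each sum contains TCF7L2, whose si1 and control values chose that gene, so the sums and shares are given as a description. TCF7L2 made up 23.0% of the control sum, 22.6% with si5, 18.9% with si1 and 16.9% with si4. The lower sum with si5 came with lower LEF1 and TCF7L1, and the sums with si4 and si1 came with lower shares of TCF7L2. LEF1 held 30.1% of the sum with si5 and 36.3% with si4. TCF7 and LEF1 were the most abundant of the 4 in every library, with TCF7 first in si5 and control and LEF1 first in si4 and si1. These shares compare levels per length of transcript.

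**Figure D2:**
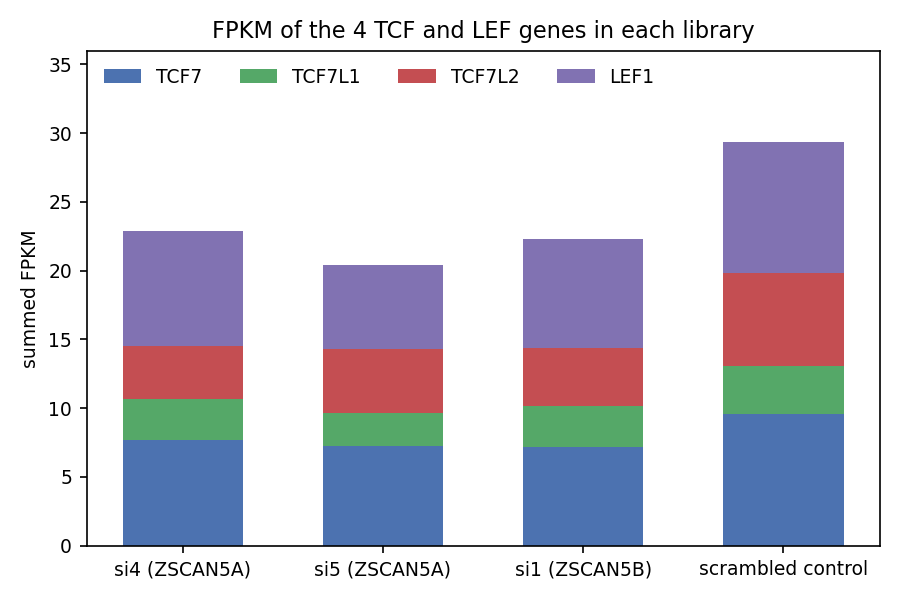
Summed FPKM of TCF7, TCF7L1, TCF7L2 and LEF1 in each library, as stacked bars from 0. The siRNA libraries reach 20.4 to 22.9 FPKM and the control 29.4 FPKM. The TCF7L2 parts of the si1 and control bars are the values that chose that gene.

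CTNNB1, which encodes beta-catenin, was the most abundant of the 10 genes. It lies on chromosome 3 at 41240942 to 41281939 (hg19, plus strand). Its level was 93.4 FPKM with si4, 81.4 with si5 and 92.5 with si1, against 85.7 in control, so the control lay inside the range of the siRNA libraries. The log2 ratio was 0.03 for the mean of si4 and si5 and 0.11 for si1, and it became -0.13 and -0.03 once all libraries were scaled to the same FPKM sum. With about 17200 fragments in control, the interval of the si4 to si5 ratio, 1.13 to 1.17, excluded 1 although the difference was small. CTNNB1 transcript stood at 2.92 times the TCF and LEF sum in control, 4.09 times with si4, 3.98 times with si5 and 4.14 times with si1. The higher quotient went with the lower TCF and LEF sum, since CTNNB1 itself moved by at most 1.09-fold. That sum holds the TCF7L2 values that chose TCF7L2, so the quotient is a description too. The level of beta-catenin protein, which the destruction complex sets, was not measured in these libraries.

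The scaffolds of the destruction complex did not share a pattern. AXIN1, the constitutive scaffold, lies on chromosome 16 at 337440 to 402676 (hg19, minus strand) and measured 14.1 FPKM with si4, 13.0 with si5 and 13.9 with si1, against 14.5 in control. All 4 values lay within 1.11-fold. Its log2 ratio of -0.09 for si4 and si5 and -0.06 for si1 turned to 0.05 and 0.09 after the trend with transcript length and GC content was removed. AXIN2, the Wnt-induced paralog of AXIN1 and a common readout of pathway activity, lies on chromosome 17 at 63524683 to 63557740 (hg19, minus strand). It measured 3.56 FPKM with si4, 3.31 with si5 and 3.56 with si1, against 3.89 in control. The control was the highest by a small margin. The ratio was 0.882 for the mean of si4 and si5 (interval 0.815 to 0.955) and 0.915 for si1, where the interval of 0.832 to 1.01 included 1. With the length and GC trend removed, its log2 ratio went from -0.18 to -0.06 for si4 and si5 and from -0.13 to -0.03 for si1.

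APC, the scaffold that carries beta-catenin to degradation and is lost in most colorectal cancers, lies on chromosome 5 at 112043202 to 112181936 (hg19, plus strand). It measured 6.28 FPKM with si4, 6.39 with si5 and 5.82 with si1, against 4.50 in control. All 3 siRNA libraries lay above the control, the reverse of the TCF and LEF genes. The ratio of the si4 and si5 mean to control was 1.41 (interval 1.35 to 1.47), short of the limit, and 1.07% of all genes tested had a higher ratio. With si1 the ratio was 1.29 (interval 1.23 to 1.36), and 4.05% of genes had a higher one. No gene of the 10 passed 1.5-fold upward in any library. Between si1 and the mean of si4 and si5 the APC ratio was 0.918 (interval 0.883 to 0.954), the only one of the 10 below 1 beyond counting error.

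NKD1 encodes Naked cuticle homolog 1, a feedback inhibitor that binds Dishevelled. It lies on chromosome 16 at 50582241 to 50674771 (hg19, plus strand) and was the least abundant of the 10 genes, at 0.987 FPKM with si4, 0.882 with si5 and 1.03 with si1, against 1.44 in control. The control lay above all 3 siRNA libraries, which spanned 1.17-fold. The ratio was 0.650 for the mean of si4 and si5 (interval 0.590 to 0.715) and 0.716 for si1 (interval 0.637 to 0.805). NKD1 was called with the mean of si4 and si5 and with si5 alone, at 1.54-fold and 1.63-fold lower, and missed the limit with si4 alone at 1.46-fold. In si4 and si5 it was under 1 FPKM, so it entered those comparisons only through the control, the side where it was high, and its call is no support for a difference. About 681 fragments in control stand behind it, against 1510 for TCF7L2. RNF43, a membrane ubiquitin ligase that removes Frizzled receptors from the cell surface, lies on chromosome 17 at 56431038 to 56494931 (hg19, minus strand). Its levels were 4.08 FPKM with si4, 4.12 with si5 and 4.18 with si1, against 4.17 in control, all within 1.02-fold. The interval of its si1 ratio ran from 0.918 to 1.09. Of the 3 feedback genes, AXIN2 lay between NKD1 and RNF43 in ratio with the mean of si4 and si5 and with si1. In both comparisons the interval of AXIN2 overlapped that of RNF43, so their sizes cannot be told apart.

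**Figure D3:**
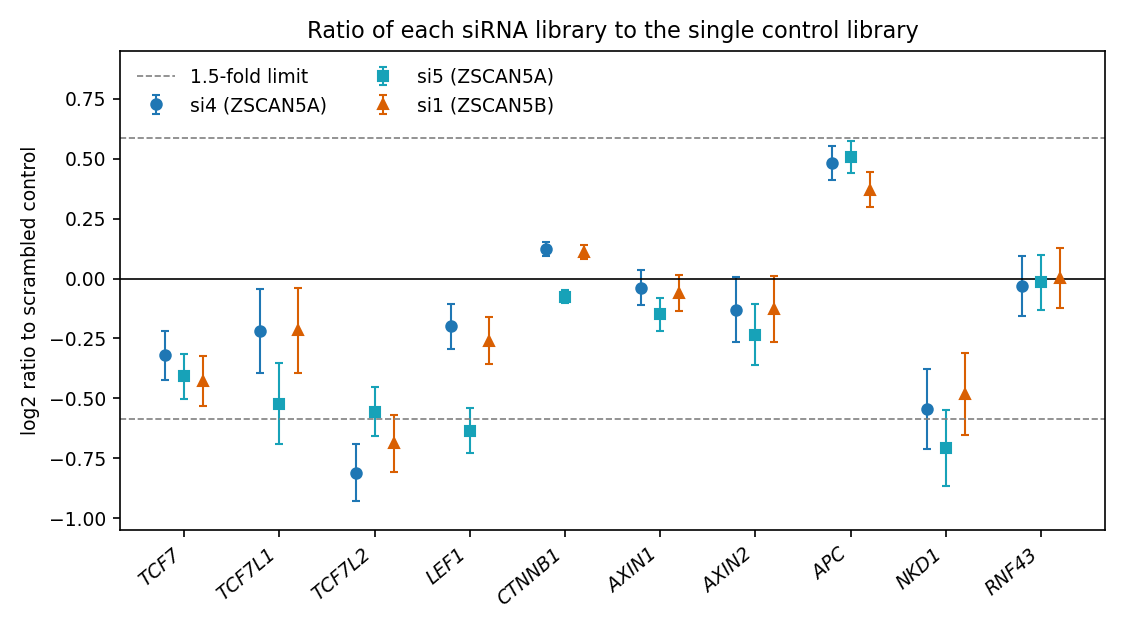
log2 ratio of each siRNA library to the single control library for each gene, with 95% counting intervals as bars and the 1.5-fold limit dashed. TCF7L2 lies lowest with si4, at -0.81, APC lies above 0 with all 3 siRNAs, and RNF43 lies at 0 within its bars.

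By the 1.5-fold rule, 2 of the 10 genes (TCF7L2 and NKD1) were lower with the mean of si4 and si5 and 0 were higher, where 3.1% and 0.673% of all genes were. With si1 it was 1 gene, TCF7L2, beside 3.16%. Taken singly, si4 gave 1 lower gene (TCF7L2), where 5.19% of all genes were lower and 1.13% higher, and si5 gave 2 (LEF1 and NKD1), where 2.92% were lower and 0.575% higher. TCF7L2 missed the limit with si5 at 1.47-fold lower and NKD1 with si4 at 1.46-fold. Nothing is read from the si1 count, since TCF7L2 with si1 chose the list, and the other counts share its control library. In the lower direction, NKD1 stood just inside the limit at 1.54-fold with the mean of si4 and si5 and LEF1 just outside at 1.32-fold, while APC stood outside it in the higher direction at 1.41-fold. With si1, in the lower direction, TCF7L2 stood inside at 1.61-fold and NKD1 outside at 1.40-fold.

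The control library held the highest of the 4 values for 7 of the 10 genes (TCF7, TCF7L1, TCF7L2, LEF1, AXIN1, AXIN2 and NKD1) and the lowest for APC, where the control was highest for 36.2% and lowest for 30.1% of 12926 genes. The control was also highest for 51.8% of the 85 other Wnt pathway genes. All of these counts rest on that 1 library, and TCF7L2 is counted although its si1 and control values chose it. Between si4 and si5, 7 of the 10 genes were higher with si4, at a median log2 difference of 0.11. Over all genes tested that median was 0.02.

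Ratios to control moved with transcript length across all genes. The median log2 ratio of the mean of si4 and si5 ran from 0.12 in the shortest of 5 length classes to -0.12 in the longest, and that of si1 from 0.13 to -0.12. After subtracting the median of genes of like length and GC content, TCF7L2, with a transcript of 4072 bases, kept a log2 ratio of -0.63 with the mean of si4 and si5 and -0.67 with si1, both past the limit. The si1 and control values behind these ratios chose TCF7L2, so the ratios are a description. NKD1, with 8650 bases inside its deposited locus, went to -0.32 and -0.18, and its call ended. APC has the longest transcript of the 10, 10704 bases, and it went to 0.55 and 0.42. The 4 TCF and LEF genes stayed below 0 in both comparisons, from -0.63 to -0.26 and from -0.67 to -0.13. RNF43 went to 0.17 in both.

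**Figure D4:**
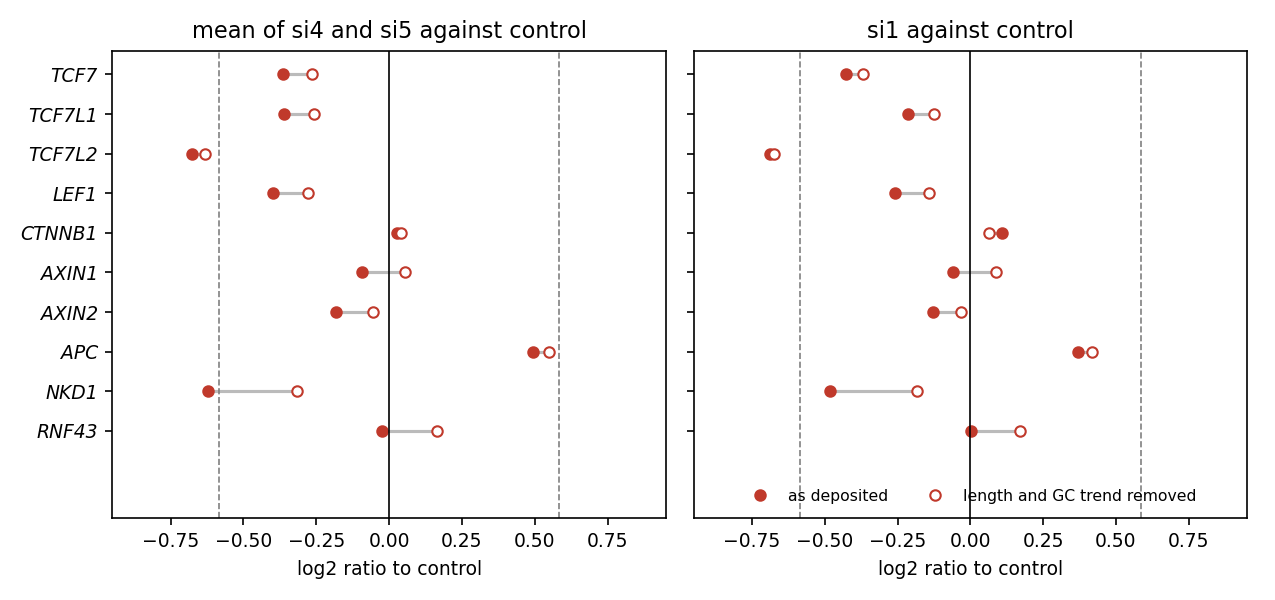
log2 ratio to control of each gene as deposited (filled) and after the trend with transcript length and GC content was removed (open), with the 1.5-fold limit dashed. TCF7L2 stays at -0.63 and -0.67, while NKD1 moves from -0.62 to -0.32 and from -0.48 to -0.18.

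The other genes of the pathway were read from 9 lists by role, 117 genes in all, of which 85 could be tested. With the mean of si4 and si5, 4 were lower (BCL9L, CREBBP, EP300 and CCND1) and 1 was higher (KREMEN2), 5.88% in all, and the median log2 ratio was -0.16. With si1, 2 were lower (CREBBP and EP300) and 0 higher, 2.35% in all, at a median of -0.12. The control was highest for 44 of the 85, or 51.8%. Among 18 nuclear cofactors, which join or oppose TCF and beta-catenin on DNA, 14 were below the control and 4 above in both comparisons, at a median of -0.27 with si4 and si5 and -0.30 with si1. With si4 and si5, 74.1% of all 85 other Wnt pathway genes and 53.3% of all genes tested were below the control, and with si1 67.1% and 51.5% were. EP300, a histone acetyltransferase that beta-catenin recruits, measured 7.22 FPKM with si4, 6.86 with si5 and 6.84 with si1, against 11.0 in control, a log2 ratio of -0.68 with si1 beside -0.69 for TCF7L2. Its relative CREBBP measured 4.28, 4.16, 4.30 and 6.54 FPKM. Both lay below the control by over 1.5-fold in each siRNA library, and neither stayed past the limit in either comparison once the length and GC trend was removed. BCL9L, an adaptor between beta-catenin and Pygopus, measured 1.05, 1.27, 1.40 and 1.89 FPKM and, with the siRNAs taken singly, passed the limit only with si4, and its call too ended with the trend removed. The most abundant cofactors were AES, CBY1 and TLE3, of which TLE3, the corepressor of TCF factors, measured 18.4, 17.5, 17.1 and 23.0 FPKM.

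Upstream of the TCF factors, several role lists held no tested gene past the limit in either comparison. These were ligands and secretion (12), receptors (15), Dishevelled and its regulators (6), receptor turnover (3) and the other parts of the destruction complex (8). Over all genes, 3.1% were lower and 0.673% higher with the mean of si4 and si5, and 3.16% and 0.832% with si1. The inhibitor list held KREMEN2, higher with the mean of si4 and si5. With si4 alone, where 5.19% of all genes were lower, WNT5A at 0.590 of control and the receptor gene FZD5 at 0.507 passed it. In other role lists NOTUM at 0.589 and TLE2 at 0.638 also passed with si4 alone. WNT5A and FZD5 also passed with the mean of si4 and si5 at the same FPKM sum, and the ligand gene WNT6 passed with si1 at that sum. FZD5, NOTUM, TLE2 and WNT6 were named after their values were seen. NOTUM measured 0.926 FPKM with si4 against 1.57 in control, and WNT6 0.923 with si1 against 1.30. Both entered those comparisons only through the control, the side where they were high, so their passes are no support for a difference. GSK3A, a kinase of the complex in which AXIN1, AXIN2 and APC serve, measured 85.8 FPKM with si4, 78.5 with si5 and 81.7 with si1, against 81.6 in control. CSNK1A1, its priming kinase, measured 48.8, 52.4, 53.0 and 56.4 FPKM, and TNKS2, which marks AXIN for degradation, 25.6, 26.3, 24.9 and 26.0. ZNRF3, the paralog of RNF43, measured 3.65, 3.46, 3.52 and 4.47 FPKM, while LGR4 and LGR5, the R-spondin receptors, stood at 15.1 and 5.02 in control. DVL1, DVL2 and DVL3, the Dishevelled proteins that NKD1 binds, stood at 29.4, 19.1 and 14.8 FPKM in control. The leading ligand and secretion genes were WLS, the Wnt carrier, at 52.9 FPKM in control, WNT5B at 9.95 and WNT5A at 7.33. The leading receptor genes were PTK7 at 31.0, RYK at 20.9 and FZD6 at 14.7.

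Among 18 tested target genes outside the 10, CCND1, which encodes cyclin D1, passed the limit with the mean of si4 and si5. It measured 7.09 FPKM with si4, 18.0 with si5 and 22.4 with si1, against 24.7 in control, so this call rests on si4, and si5 alone gave a log2 ratio of -0.46. KREMEN2, a receptor for DKK inhibitors, measured 2.61, 1.80, 1.49 and 1.26 FPKM, and it too passed only through si4. Target genes at high levels, ID2, BIRC5 and JUN, stood at 122, 66.5 and 63.7 FPKM in control. The most abundant inhibitor genes were KREMEN1 at 13.1, APCDD1 at 10.2 and SFRP1 at 4.54 FPKM in control. The median over the 18 targets was -0.19 with si4 and si5 and -0.01 with si1.

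**Figure D5:**
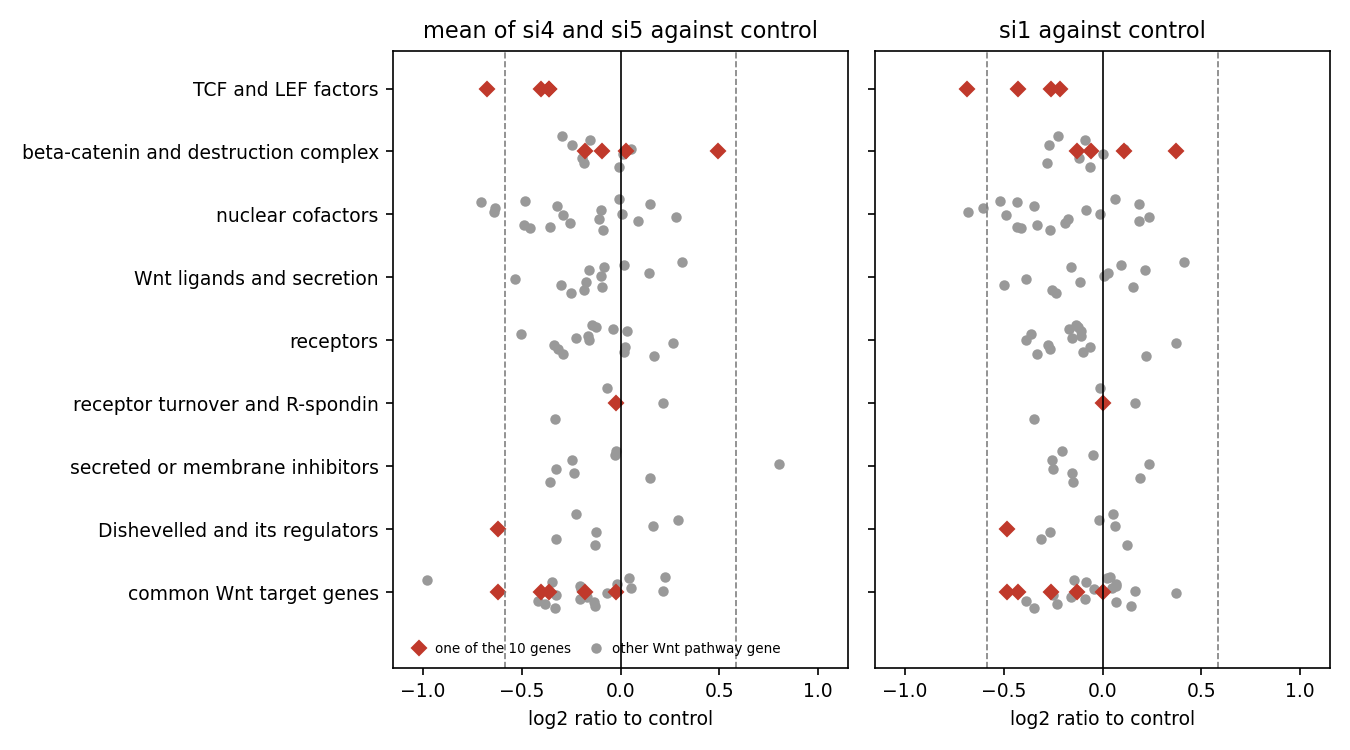
log2 ratio to control of the tested Wnt pathway genes by role list, for the mean of si4 and si5 and for si1, with the 10 genes as diamonds and the 1.5-fold limit dashed. The 4 TCF and LEF diamonds all lie below 0 in both panels, and APC is the diamond farthest above 0.

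The genes nearest to TCF7L2 in pattern were found by the distance between their 3 log2 ratios to control, over 4 libraries and 9426 genes at 5 FPKM or more in at least 1 library. Among the nearest 5 were TMEM87B at a distance of 0.0567, ATXN2L at 0.0955, SEC16A at 0.0963 and FOXRED2 at 0.122. TMEM87B measured 3.47 FPKM with si4, 4.17 with si5 and 3.62 with si1, against 5.98 in control, in the same order of libraries as TCF7L2. Within the set, NKD1 was nearest to TCF7L2, at 0.368, followed by TCF7 at 0.573, LEF1 at 0.750 and TCF7L1 at 0.757, and APC was farthest, at 1.98. The other TCF and LEF genes were therefore farther from TCF7L2 than NKD1 was. These distances share the control library and are a description of 4 libraries.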

How the data were processed

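RNA from HEK-293 cells treated with 4 siRNAs was sequenced as 1 stranded mRNA library each, and the labels and the study's methods name different kits. Per the labels, the submitters' processing notes name CASAVA 1.8.2, Trimmomatic 0.30, TopHat2 2.1.0 and Cufflinks 2.2.1 with hg19. The authors deposited FPKM values per gene, normalized by Cufflinks to transcript length and mapped fragments, which were used as given. Whether the values were scaled further between libraries is not given in the sources used here. Libraries were grouped by their labels.

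The 10 genes and the role lists were chosen with earlier results of these data known. Of 23284 symbols, 543 stood on several rows, and the row with the highest mean was kept. Ratios were taken without a pseudocount, at 1.5-fold and 1 FPKM in at least 1 library, leaving out rows at 0 on a side. Genes named were the 10, both targets, other Wnt genes past the limit, the 3 highest in control per list, and the 5 nearest to TCF7L2. Of those 5, and of the kidney markers, 1 gene each is not reported here. Because FPKM from Cufflinks need not be whole fragments per gene, low values were searched for whole steps (below 0.1 FPKM, up to 40 fragments, within 0.05%). Steps were whole for 73.2% of 1655 low genes, and 1055 of them with a transcript length set the approximate depths. Fragment numbers and intervals built on these depths are approximate.

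Lengths, GC content and 3′ UTRs came from GENCODE canonical transcripts on GRCh37, clipped to each deposited locus, which for NKD1 left out 8389 bases. For the length and GC trend, genes were binned in 10 by 10 classes and 95.5% had a length. Promoters came from RefSeq (GRCh38.p14, 250 bases before and 50 after a start). Analyses used Python 3.11.15, NumPy 2.4.6, pandas 2.3.3, SciPy 1.17.1 and matplotlib 3.10.9, and limma 3.58.1 in R 4.3.3 on log2(FPKM + 1) as an alternative. The fold rule, the limma fit, the step search and the trend removal were tested on simulated data. Alternatives were other expression limits, pseudocounts, scalings and fold limits, summed rows, each ZSCAN5A siRNA alone and limma.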

Additional observations from a re-analysis of the deposited data

How the results depend on the processing

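No paired analysis was possible because each siRNA had 1 library, and the shared replicate number only names it. Of the 10 genes, 2 were called with the mean of si4 and si5. This count was 1 at a limit of 5 FPKM, 1 with a pseudocount of 0.1, 0 with a pseudocount of 1, 1 with median-ratio scaling, 1 with the length and GC trend removed, 0 at a 2-fold limit, 6 at a lower limit midway between 1-fold and 1.5-fold, 1 with si4 alone and 0 with limma. With si5 alone it was 2, LEF1 and NKD1, so the TCF7L2 call rests on si4 and the NKD1 call on si5. With si1 the count of 1 became 0 with a pseudocount of 1, 2 with every library at the same FPKM sum, 0 at 2-fold and 4 at the lower limit. Of the other Wnt pathway genes, 5 were called with the mean of si4 and si5. That count was 11 with no expression limit, 3 at 5 FPKM, 1 with a pseudocount of 1, 10 at the same FPKM sum, 2 with the trend removed, 0 at 2-fold, 20 at the lower limit, 9 with si4 alone, 2 with si5 alone and 0 with limma. With si1 the count of 2 became 11 with no limit, 1 with a pseudocount of 1, 1 with median-ratio scaling, 5 at the same sum, 0 with the trend removed, 0 at 2-fold and 19 at the lower limit. The shares of all genes past the changed fold limits are not given here. The counts at those limits therefore describe the settings, and nothing is read from them about the 10 genes or the pathway. The log2 ratio of TCF7L2 ran from -0.83 to -0.56 with the mean of si4 and si5 over 9 alternatives. With si1 it ran from -0.83 to -0.58 over 7, and it stayed negative in all of them. The si1 and control values chose TCF7L2, so these ranges describe the settings and are no support for a difference. The causes of these shifts were not tested.

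The limma fit had 1 residual degree of freedom, from the difference between si4 and si5, and assumed that the control varied alike. It called 10 of 12986 genes at an adjusted p below 0.05, none of them among the 10 genes described or the other Wnt pathway genes. At an unadjusted p below 0.05 it counted 1665 genes, 4 of the 10 and 11 of the others. The limma adjusted p of the 10 ran from 0.374 to 0.941. With 1 library per siRNA and a shared control, variation between cultures and the treatments cannot be told apart, and NKD1, near 1 FPKM, had the least expression behind its call.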
